A study of Mus musculus with 9 samples.

Results

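The transcripts of the mouse mitochondrial genome were taken from the expression table as every row whose gene symbol starts with mt-. These were 37 of the 55401 genes in the table, made up of 13 protein genes, 2 rRNA genes and 22 tRNA genes, and 35 of them had a mean of at least 1 TPM (transcripts per 1e+06 transcripts) and entered the test. RAW264.7 cells, a mouse macrophage line that grew out of a tumour caused by Abelson murine leukemia virus in a male mouse, labelled as wild type in all groups, were treated with DMSO (the solvent), with DMSO and lipopolysaccharide (LPS), or with LPS and skatole (LPS + Ska). Lipopolysaccharide is a bacterial cell wall component that activates macrophages, and skatole is the indole derivative 3-methylindole. Each group held 3 columns, numbered replicates 5, 6 and 7, all of 1 cell line, and nothing states that they came from separate cultures, so p-values measure only the spread between these columns. The labels give a treatment of 24 h, whereas the methods text gives a longer one.

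In both LPS groups the 3 columns were arithmetically tied. Replicate 5 equalled the mean of replicates 6 and 7 to within 1e-05 TPM in 36 of 36 mt- genes with LPS and in 37 of 37 with LPS + Ska, against 0 of 33 with DMSO, so no gene has more than 2 independent values in these groups, and their SDs describe columns and not cultures. The read depth is unknown, because TPM keeps no depth. Of 10 macrophage markers 9 were present, with a summed level of 12428 to 13398 TPM with DMSO, 7375 to 7773 TPM with LPS and 13690.4 to 13949 TPM with LPS + Ska, whereas Mertk was listed at 0 in every column. Lyz2 held most of this sum, at means of 9150.5, 4423 and 10061 TPM in the 3 groups, and over the 9 markers tested 1 was called higher and 1 lower between LPS + Ska and LPS, with a median log2 fold change of -0.02. Markers of fibroblasts, lymphocytes, epithelium, endothelium and hepatocytes summed to at most 0.787 TPM in any column, and Alb, Cd3e, Epcam and Pdgfra were listed at 0.

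The mitochondrial genome is a small circle that is transcribed from both strands into long precursor RNAs. In these precursors most protein and rRNA genes are flanked by tRNA genes, and enzymes that cut out the tRNAs thereby release the other RNAs. The proteins are subunits of respiratory complexes I, III and IV and of ATP synthase (complex V), and the rRNAs and tRNAs serve the ribosome inside the organelle that makes them.

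The sequences of 6 tRNA transcripts are shown because their length bears on what a read can be assigned to. They are the 5 tRNAs that stood highest above LPS with LPS + Ska, and mt-Ts1, the one with the highest listed level. The sequences are from the GENCODE annotation of build mm10, 5′ to 3′, and capitals mark the anticodon of each tRNA, found as the middle of a 7-base loop closed by a stem with at least 4 of 5 pairs.
mt-Tp (chrM:15356-15422, minus strand): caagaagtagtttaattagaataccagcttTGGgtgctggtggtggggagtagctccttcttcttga
mt-Td (chrM:6942-7011, plus strand): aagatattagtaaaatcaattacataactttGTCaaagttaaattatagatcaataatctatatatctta
mt-Te (chrM:14071-14139, minus strand): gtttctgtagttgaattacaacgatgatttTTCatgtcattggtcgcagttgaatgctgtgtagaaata
mt-Ti (chrM:3706-3774, plus strand): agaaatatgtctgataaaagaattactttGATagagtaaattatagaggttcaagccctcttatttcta
mt-Tt (chrM:15289-15355, plus strand): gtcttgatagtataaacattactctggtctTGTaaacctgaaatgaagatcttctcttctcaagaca
mt-Ts1 (chrM:6870-6938, minus strand): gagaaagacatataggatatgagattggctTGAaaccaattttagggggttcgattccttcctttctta

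mt-Atp8 is shown because its level diverged from that of mt-Atp6, with which it shares bases. Of its 204 bases, capitals mark the 43 bases that are also the start of mt-Atp6.
mt-Atp8 (chrM:7766-7969, plus strand): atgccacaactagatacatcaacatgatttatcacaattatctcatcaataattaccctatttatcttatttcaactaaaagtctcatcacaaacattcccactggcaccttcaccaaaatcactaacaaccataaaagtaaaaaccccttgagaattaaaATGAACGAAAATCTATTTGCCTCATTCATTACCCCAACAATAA

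The tRNA genes are 59 to 75 bases long, the protein genes 204 to 1824 and the rRNA genes 955 to 1582. A read from a mature tRNA and a read from an unprocessed precursor that contains it cannot be told apart in such a table. Neighbouring genes overlap in 9 pairs, by 1 to 43 bases, and the longest overlap is that of mt-Atp8 with mt-Atp6. Other overlaps are the 7 bases between mt-Nd4l and mt-Nd4, the 3 between mt-Co1 and mt-Ts1 and the 14 between mt-Nd5 and mt-Nd6, the last 2 on opposite strands. The library kit named in the labels is the NEBNext Ultra RNA kit, which does not mark the strand in its standard form, so sense and antisense reads at a site cannot be told apart. On the genome 12 protein genes, both rRNA genes and 14 tRNA genes lie on the plus strand, and mt-Nd6 and 8 tRNA genes lie on the minus strand.

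A further limit on the levels came from nuclear copies. On chromosome 1, in the stretch chr1:24611535-24616197 of mm10 (minus strand), the annotation lists 7 pseudogenes that match mt-Nd4, mt-Nd4l, mt-Nd3, mt-Co3, mt-Atp6, mt-Co2 and mt-Co1 with at most 1 mismatch over 294 to 876 aligned bases. They are listed with levels like those of the mitochondrial genes, as the ratio of the copy to the mitochondrial gene was 1.009 to 1.041 for mt-Atp6 (Gm10925) in the 9 columns, 0.967 to 0.994 for mt-Co2 (Gm28661), 0.996 to 1.0 for mt-Co3 (Gm28437) and 1.005 to 1.019 for mt-Nd4l (Gm10222). The ratio ran from 1.04 to 1.22 for mt-Nd3 (Gm28438), from 0.616 to 0.738 for mt-Nd4 (Gm28439) and from 0.423 to 0.632 for mt-Co1 (Gm29216), and the last 2 copies match a part of the gene. The 60 bases below show mt-Nd3 and its copy, which differ at 1 base of 345 (T3C, counted from the first base of mt-Nd3), and capitals mark that base.
mt-Nd3 (chrM:9459-9518, plus strand): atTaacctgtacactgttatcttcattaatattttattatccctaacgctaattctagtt
Gm28438 (chr1:24613060-24613119, minus strand): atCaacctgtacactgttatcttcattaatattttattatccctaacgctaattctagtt
How reads that match both places were shared between them is not given in the sources used here, so the levels of these 7 mitochondrial genes are uncertain by up to the level of the copy. Less similar transcripts were Gm13340, which matches mt-Co1 at 97.6% and had a mean of 9.75 TPM, Gm13341, which matches mt-Co2 at 95.9% (13.1 TPM), and Cep295 (49.3 TPM), which matches mt-Tn at 91.5% over 71 bases and mt-Tl1 at 93.5% over 62 bases. Genomic sequence outside annotated transcripts was not examined. That includes the bases between the 7 copies, which lie in the same order as their mitochondrial genes. On the mitochondrial genome mt-Ts1, mt-Td, mt-Tk, mt-Atp8, mt-Tg and mt-Tr lie between those genes. Whether reads of these tRNA genes and of mt-Atp8 were also shared with chromosome 1 was not tested. The copies held 3.66% to 4.89% of all TPM with DMSO, 5.50% to 5.94% with LPS and 5.44% to 6.33% with LPS + Ska. Adding each copy to its mitochondrial gene, an alternative chosen after seeing the data, left 7, 11 and 18 mt- genes called in the 3 comparisons, the same counts as without it.

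As a share of all TPM, the 37 genes together held 9.64%, 8.59% and 7.20% in DMSO replicates 5, 6 and 7. They held 10.4%, 10.7% and 10.1% in the LPS columns and 10.9%, 11.9% and 9.94% in the LPS + Ska columns. All 6 columns with LPS lay above the 3 DMSO columns, while the LPS and LPS + Ska columns overlapped. These are shares, so they do not show whether the amount of mitochondrial RNA per cell differed. More mitochondrial genomes per cell and more RNA per genome cannot be told apart here either.

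Protein genes made up almost all of this share, and their sums overlapped between LPS and LPS + Ska. The 13 protein genes summed to 93365, 83363 and 69805 TPM with DMSO, 100110 ± 3052 with LPS, and 103250 ± 9620 in the LPS + Ska group (SD, n = 3 columns). The log2 difference was 0.29 for LPS against DMSO, whose columns did not overlap, and 0.04 for LPS + Ska against LPS, whose columns did (exact two-sided permutation p = 0.1 and 0.7).

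The summed levels of the 2 rRNA genes and of the tRNA genes were higher with LPS than with DMSO, and higher again with LPS + Ska. The rRNA genes summed to 465 ± 61.8 TPM with DMSO, 718 ± 29.6 with LPS, and 886 ± 18.0 in the LPS + Ska group (SD, n = 3 columns). The tRNA genes summed to 2473, 2087 and 1744 TPM in the DMSO columns, 2864, 2856 and 2873 with LPS, and 4966, 5066 and 4866 with LPS + Ska. No 2 groups overlapped in either class. The tRNA sum was 1.36 times as high with LPS as with DMSO and 1.73 times as high with LPS + Ska as with LPS. For these class sums an exact two-sided permutation test gave p = 0.1 wherever columns did not overlap, the smallest value that 3 columns against 3 allow (0.1125 after Benjamini-Hochberg adjustment over the 9 tests), so no sum could pass 0.05. The test treats the 3 columns of a group as separate values, which the tied LPS and LPS + Ska columns are not. Its p-values, here and for the ratios below, therefore describe the order of columns only and carry no inference about cultures.

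**Figure D1:**
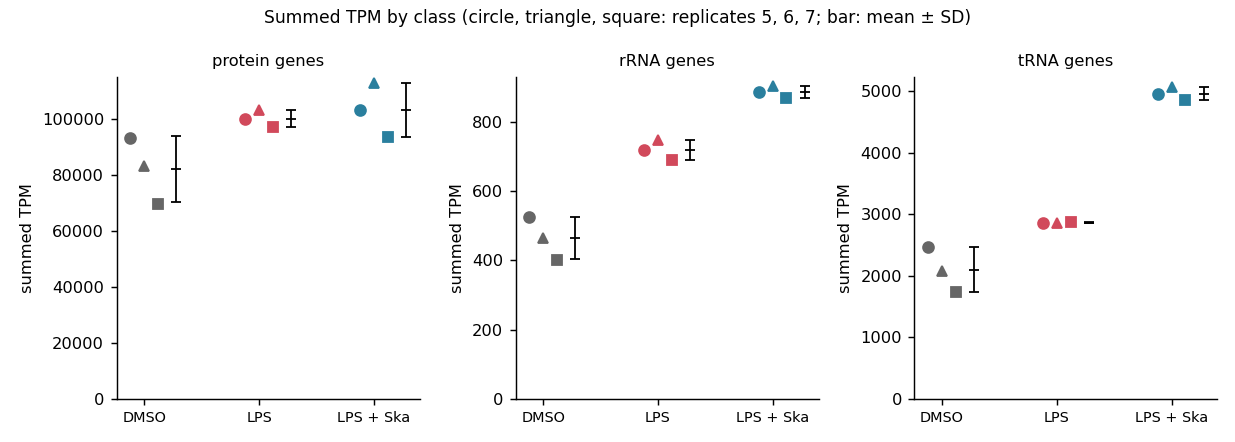
Summed TPM (vertical axes, from 0) of the mitochondrial protein, rRNA and tRNA genes in each column of the 3 groups; circles, triangles and squares are replicates 5, 6 and 7 and the bar is the mean ± SD. The tRNA sum lies near 2864 TPM in the LPS columns and between 4866 and 5066 TPM in the LPS + Ska columns, whereas the protein sums of these groups overlap.

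One tRNA gene carried most of the tRNA sum. mt-Ts1, a serine tRNA, held 66.5% of it with DMSO. Because sense and antisense reads cannot be told apart, reads of plus strand RNA at this site would count to mt-Ts1 as well. Their part in its level was not tested. Without mt-Ts1 the sum was 703 ± 131, 823 ± 14.3 and 1579 ± 72.0 TPM with DMSO, LPS and LPS + Ska (SD, n = 3 columns), so LPS + Ska stood 1.92 times as high as LPS without that gene as well, and DMSO and LPS then overlapped.

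Gene by gene, differences were tested with limma across all 12819 genes with a mean of at least 1 TPM, on log2(TPM + 1), a scale that understates the change of low genes. A gene was called at a Benjamini-Hochberg adjusted p below 0.05 together with a fold change above 1.5 or below 0.67. In LPS + Ska compared with LPS, 11 of 35 mt- genes were called higher and 0 lower. The shares over all genes tested were 3.35% higher and 6.14% lower. At an unadjusted p below 0.05 in limma, a looser limit, 3 of the 35 mt- genes were lower. The share of all genes at that unadjusted limit is not given here, for this or the other comparisons. In LPS compared with DMSO, 7 were called higher, 12 without DMSO replicate 5, and 0 lower (1 lower at an unadjusted p below 0.05), where 12.7% of all genes were called higher and 20% lower. In LPS + Ska compared with DMSO, 18 were called higher and 0 lower (0 lower at an unadjusted p below 0.05 as well), where 11.4% of all genes were called higher and 25.3% lower. The DMSO and LPS columns each serve in 2 of these comparisons, which are therefore not independent.

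By class, 9 of the 20 tRNA genes tested were called higher with LPS + Ska than with LPS, 2 of 13 protein genes and 0 of 2 rRNA genes, against 3.35% of all genes. The median log2 fold change was 0.60 over the tRNA genes tested and 0.03 over the protein genes, against -0.10 over all genes. In LPS compared with DMSO 3 of 20 tRNA, 3 of 13 protein and 1 of 2 rRNA genes were called higher, where 12.7% of all genes were. The medians there were 0.26 and 0.29 over the tRNA and protein genes against -0.07 over all genes. That tRNA median was 0.48 without DMSO replicate 5, 0.15 without DMSO replicate 6 and 0.17 without LPS replicate 6. Scaling the columns by the median ratio of their genes instead of using TPM as deposited adds 0.08 to every log2 difference between LPS and DMSO, 0.10 between LPS + Ska and LPS and 0.18 between LPS + Ska and DMSO.

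**Figure D2:**
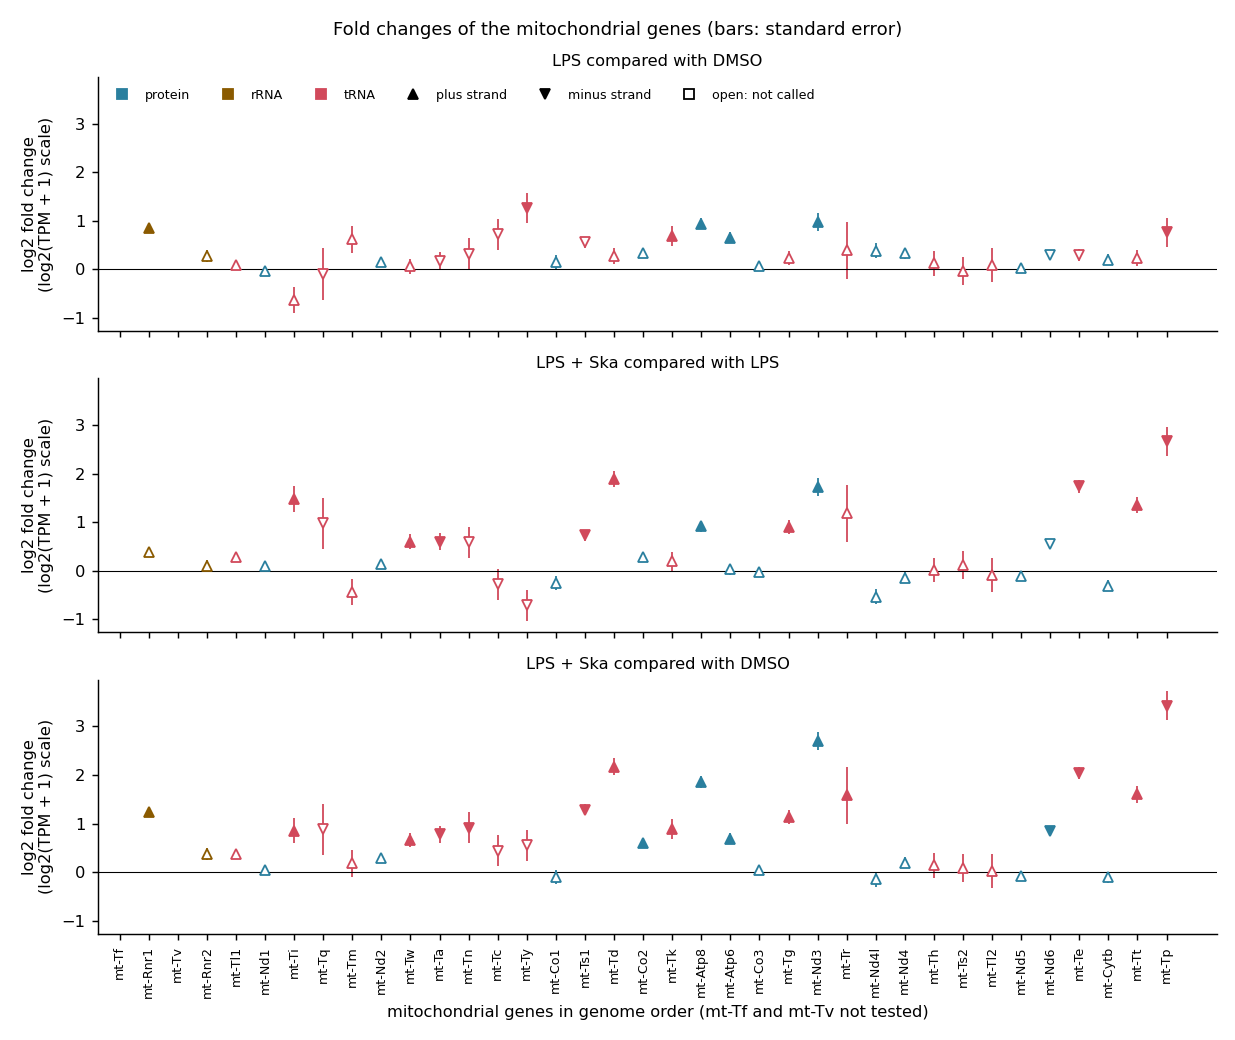
Log2 fold change on the log2(TPM + 1) scale (vertical axes) of the 35 mitochondrial genes tested, in genome order (horizontal axis), for the 3 comparisons; bars are standard errors, colours the class of RNA, triangles pointing up the plus strand, pointing down the minus strand, and filled symbols genes that were called. In LPS + Ska compared with LPS the highest of the 11 called genes is mt-Tp at 2.67, and the lowest gene, which was not called, is mt-Ty at -0.71.

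Complex I, which passes electrons from NADH to ubiquinone, has 7 subunits encoded here, and 1 of them, mt-Nd3, was called higher in both steps. It lay lowest of the 13 protein genes in level in all groups where nuclear copies are not added. mt-Nd3 (ENSMUSG00000064360) had 171, 121 and 138 TPM in the DMSO columns in the order of replicates 5, 6 and 7, which is kept below, 286, 207 and 366 with LPS, and 927, 921 and 934 with LPS + Ska. The groups did not overlap. The log2 fold change was 0.97 (standard error 0.19, limma adjusted p = 0.0015) for LPS against DMSO and 1.73 (0.19, adjusted p = 3.2e-04) for LPS + Ska against LPS. Its nuclear copy Gm28438 had 168 ± 32.2, 328 ± 75.7 and 971 ± 10.5 TPM in the 3 groups (SD, n = 3 columns) and was called higher in both steps as well, with 0.96 and 1.59, so the value belongs to the pair.

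mt-Nd6, the sole protein gene of the minus strand, was higher with LPS + Ska but did not pass the fold limit. Its levels were 1981, 2151 and 2286 TPM with DMSO, 2624, 2448 and 2799.8 with LPS, and 3818, 3803 and 3833 with LPS + Ska, without overlap between any groups. The log2 fold change between LPS + Ska and LPS was 0.54 (standard error 0.07, limma adjusted p = 6.7e-04) against a limit of 0.585, and the gene was called under median-ratio scaling (0.64) and without LPS replicate 7 (0.59). Against DMSO it was called, at 0.84 (adjusted p = 6.0e-06). Its ratio to the 12 plus strand protein genes was 0.0273 ± 0.00614 with DMSO, 0.0270 ± 0.00270 with LPS, and 0.0386 ± 0.00392 in the LPS + Ska group (SD, n = 3 columns). That ratio overlapped between DMSO and LPS, and lay higher in every LPS + Ska column than in any other column (exact permutation p = 0.1 against LPS).

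mt-Nd4l and mt-Nd4, which are made as 1 mRNA with overlapping reading frames, pointed downward with LPS + Ska without a call. mt-Nd4l had 2124, 1841 and 1596 TPM with DMSO, 2403, 2454 and 2353 with LPS, and 1687, 2058 and 1316 with LPS + Ska. All LPS columns lay above the other 6. The log2 fold change between LPS + Ska and LPS was -0.53 (standard error 0.15, limma adjusted p = 0.027), short of the lower limit of -0.578, and the gene was called lower without LPS + Ska replicate 6 (-0.69, adjusted p = 0.0045). mt-Nd4 had 3997 ± 541, 5017 ± 154 and 4558.5 ± 608 TPM in the 3 groups (SD, n = 3 columns), with a log2 fold change of -0.15 that was not called.

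The other complex I genes had no call in any comparison. mt-Nd1 had 5918 ± 501, 5753 ± 105 and 6135 ± 269 TPM with DMSO, LPS and LPS + Ska, mt-Nd2 had 3608 ± 467, 3964 ± 34.7 and 4376 ± 341, and mt-Nd5 had 1893 ± 175, 1939 ± 73.7 and 1796.5 ± 164 (SD, n = 3 columns). Their log2 fold changes between LPS + Ska and LPS were 0.09, 0.14 and -0.11, with overlapping columns for mt-Nd5 and columns just apart for mt-Nd1 and mt-Nd2. For complex III, mt-Cytb, which encodes cytochrome b, had 9280.0, 8412 and 7049.8 TPM with DMSO, 9417, 9644 and 9189 with LPS, and 7646, 8518 and 6773 with LPS + Ska. Its LPS + Ska columns lay below its LPS columns, with a log2 fold change of -0.31 (standard error 0.11, limma adjusted p = 0.062) that was not called.

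Complex IV, cytochrome c oxidase, passes electrons to oxygen, and none of its 3 mitochondrial subunits was called between LPS + Ska and LPS. mt-Co1 had the highest level of all mt- genes in every group where nuclear copies are not added, with 27759, 23499 and 18702 TPM with DMSO, 25592, 27079 and 24104 with LPS, and 21653, 24610.5 and 18696 with LPS + Ska, and all groups overlapped. mt-Co2 had 8416 ± 1117, 10548 ± 331 and 12763 ± 656 TPM (SD, n = 3 columns) with no overlap, and its log2 fold change was 0.33 (limma adjusted p = 0.011) for LPS against DMSO, under the fold limit, and 0.27 (adjusted p = 0.051) for LPS + Ska against LPS. It was called in LPS + Ska compared with DMSO, at 0.61, and no longer without DMSO replicate 7 (0.51) or without LPS + Ska replicate 6 (0.57). mt-Co3 had 7397 ± 907, 7760.5 ± 319 and 7629.5 ± 352 TPM and no call.

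ATP synthase has 2 mitochondrial subunits, encoded by the overlapping genes mt-Atp8 and mt-Atp6 on 1 mRNA, and their levels diverged. Levels of mt-Atp8 (ENSMUSG00000064356) were 3246, 2958 and 2469 TPM with DMSO, 5534, 5659.7 and 5407 with LPS, and 10487, 11929 and 9045 with LPS + Ska. It rose in both steps, by 0.95 (standard error 0.12, limma adjusted p = 1.0e-04) with LPS and by a further 0.91 (0.12, adjusted p = 7.4e-04) with LPS + Ska, and no groups overlapped. mt-Atp6 (ENSMUSG00000064357) had 14147, 12781 and 10135 TPM with DMSO, 19278, 20034 and 18523 with LPS, and 19773, 21381 and 18165 with LPS + Ska. It rose with LPS by 0.65 (0.12, adjusted p = 9.3e-04), a call lost without DMSO replicate 7 (0.52), and its LPS and LPS + Ska columns overlapped, with a log2 fold change of 0.03.

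The ratio of mt-Atp8 to mt-Atp6, chosen for display after the values were seen, was 0.229, 0.231 and 0.244 in the DMSO columns, 0.287, 0.283 and 0.292 with LPS, and 0.530, 0.558 and 0.498 with LPS + Ska. It thus lay higher in every LPS + Ska column than in the other 6, and such a ratio does not depend on how a column is scaled. The ratio of mt-Nd4l to mt-Nd4 moved the other way, with 0.464 ± 0.0120, 0.479 ± 0.00459 and 0.367 ± 0.0327 in the 3 groups (SD, n = 3 columns). Since mt-Atp6, mt-Nd4l and mt-Nd4 have listed nuclear copies and mt-Atp8 has none in the annotation used, the part of read sharing in these ratios was not tested.

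**Figure D3:**
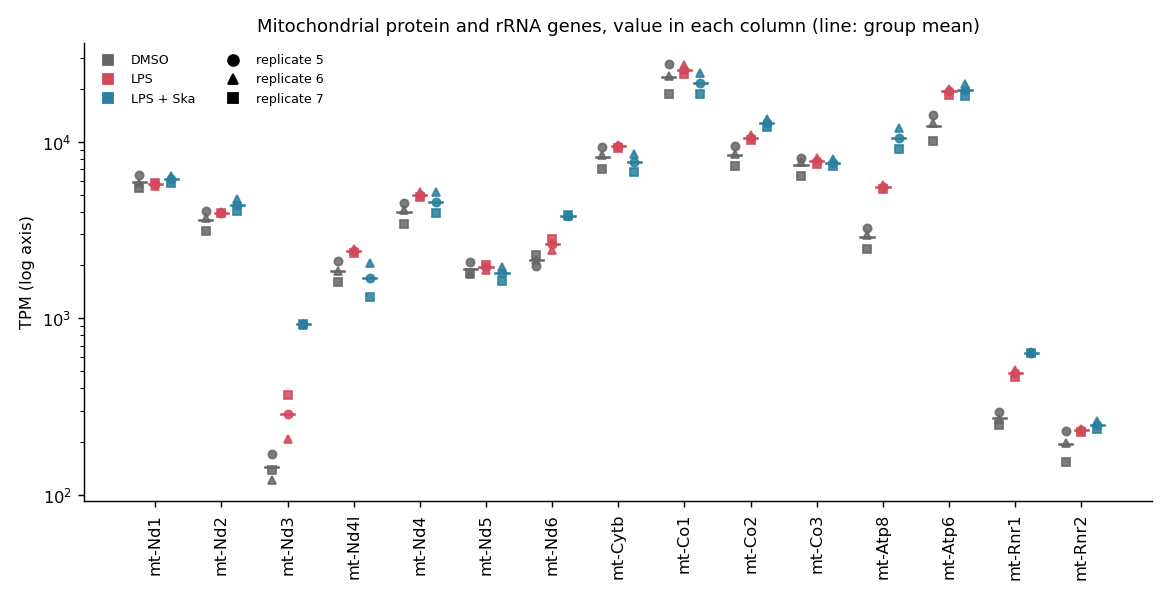
TPM (vertical log axis) of the 13 mitochondrial protein genes, ordered by complex, and the 2 rRNA genes in each of the 9 columns; colours are groups, symbols replicates and lines group means. In the group means mt-Nd3 climbs from 143 to 286 and 927 TPM and mt-Atp8 from 2891 to 5534 and 10487 TPM.

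The order of the protein genes by level was led by mt-Co1, mt-Atp6 and mt-Co2 and closed by mt-Nd3 in each group. mt-Atp8 ranked 9 with DMSO, 7 with LPS, where it overlapped mt-Nd1 at rank 6, and 4 with LPS + Ska. With DMSO the columns of mt-Co2, mt-Cytb, mt-Co3 and mt-Nd1 overlapped as neighbours in that order, as did those of mt-Nd4, mt-Nd2 and mt-Atp8, so their order is not fixed beyond the spread. With LPS + Ska mt-Co1 overlapped mt-Atp6, which it did not do in the other groups. With each nuclear copy added to its gene, mt-Atp6 stood above mt-Co1 with LPS (39043 against 38590.0 TPM) and with LPS + Ska (40271 against 34197 TPM), mt-Atp8 ranked 10, 8 and 5 in the 3 groups, and mt-Nd5 was the lowest with LPS + Ska.

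The 3 DMSO columns differed in a way that many members shared. Replicate 5 was the highest of the 3 columns in 12 of 13 protein genes, in 2 of 2 rRNA genes and in 18 of 22 tRNA genes. The last count includes mt-Tv, which was tied at 0 TPM in all DMSO columns. Replicate 7 was the lowest in 10 of 13 protein genes, 2 of 2 rRNA genes and 9 of 22 tRNA genes. mt-Nd6 and mt-Te ran the opposite way, with their lowest value in replicate 5 and their highest in replicate 7. The highest value of mt-Ta, mt-Tw and mt-Tf was in replicate 7 as well.

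The rRNA genes differed from each other. mt-Rnr1, the 12S rRNA of the small ribosomal subunit, had 295, 268 and 248 TPM with DMSO, 487, 512 and 462 with LPS, and 638, 644 and 633 with LPS + Ska. It rose with LPS by 0.85 (standard error 0.07, limma adjusted p = 7.2e-06). With LPS + Ska it stood 0.39 above LPS (adjusted p = 0.0031), under the fold limit and without overlap. mt-Rnr2, the 16S rRNA of the large subunit, had 231, 197 and 154 TPM with DMSO, 231, 236 and 227 with LPS, and 248, 260.4 and 236 with LPS + Ska. It was not called in any comparison, and its DMSO and LPS columns overlapped. The ratio of mt-Rnr2 to mt-Rnr1 was 0.782, 0.734 and 0.620 with DMSO, 0.475, 0.460 and 0.491 with LPS, and 0.389, 0.404 and 0.373 with LPS + Ska, and no groups overlapped (exact permutation p = 0.1 for each). The ratio of both rRNAs to the protein genes was 0.00566 ± 9.4e-05, 0.00717 ± 7.7e-05 and 0.00862 ± 6.3e-04 (SD, n = 3 columns), again with no overlap. How rRNA was removed or mRNA selected before sequencing is not given in the sources used here, so these rRNA levels are those that passed that step.

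Among the tRNA genes, those annotated on the minus strand held most of the summed level, owing to mt-Ts1. The strand is that of the annotation, as the strand of the reads is not known. Without it they summed to 283 ± 25.4 TPM with DMSO and 376 ± 44.5 with LPS, below the plus strand at 420.4 ± 109 and 447 ± 58.7, and to 1042 ± 51.9 with LPS + Ska, above the plus strand at 537 ± 20.1 (SD, n = 3 columns). With all genes, the ratio of the plus strand to the minus strand sum was 0.281, 0.227 and 0.236 with DMSO, 0.185, 0.215 and 0.156 with LPS, and 0.121, 0.114 and 0.129 with LPS + Ska. Each step was lower without overlap between groups (log2 difference -0.43 and -0.60, exact permutation p = 0.1 for each, 0.109 after adjustment over the 12 ratio tests). Without mt-Ts1 the ratio, an alternative chosen after seeing the data, overlapped between DMSO and LPS (means 1.48 and 1.21) and was lower in every LPS + Ska column (mean 0.516). Calls were spread over both strands, as 5 of 12 plus strand genes tested and 4 of 8 minus strand genes were called higher with LPS + Ska than with LPS. Over all genes tested that share was 3.35%.

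The largest difference was that of mt-Tp, the proline tRNA printed above. It had 11.2, 5.84 and 6.73 TPM with DMSO, 14.5, 8.30 and 20.8 with LPS, and 92.1, 86.4 and 97.7 with LPS + Ska. Each LPS + Ska column was more than 4 times as high as any other column. The log2 fold change against LPS was 2.67 (standard error 0.29, limma adjusted p = 3.7e-04). Between LPS and DMSO its columns overlapped, and the call there (0.76, adjusted p = 0.047) was lost in 10 of 21 alternatives, among them without DMSO replicate 6 (adjusted p = 0.16), DMSO replicate 7 (0.13), LPS replicate 5 (0.11), LPS replicate 7 (0.17) and LPS + Ska replicates 5, 6 and 7 (0.063, 0.053 and 0.056). Its neighbour on the opposite strand, mt-Tt, a threonine tRNA, had 3.54, 2.35 and 2.66 TPM with DMSO, 3.57, 4.47 and 2.67 with LPS, and 10.6, 11.3 and 9.91 with LPS + Ska, a log2 fold change of 1.36 (0.17, adjusted p = 6.9e-04) between the last 2.

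mt-Te, the glutamate tRNA that adjoins mt-Nd6 on the minus strand, had 193, 208 and 215 TPM with DMSO, 256, 202 and 311 with LPS, and 846, 812 and 879.7 with LPS + Ska. DMSO and LPS overlapped, and LPS + Ska stood 1.74 above LPS on the log2 scale (standard error 0.13, limma adjusted p = 4.6e-05). Its ratio to mt-Nd6 was 0.0961 ± 0.00195 with DMSO, 0.0971 ± 0.0144 with LPS, and 0.222 ± 0.00793 in the LPS + Ska group (SD, n = 3 columns), so the tRNA stood higher relative to the adjoining gene in the LPS + Ska columns than in the other 6.

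mt-Ts1 and mt-Td lie side by side between mt-Co1 and mt-Co2. mt-Ts1 had 1620.2, 1441 and 1133 TPM with DMSO, 2042, 2019.6 and 2064 with LPS, and 3387, 3559 and 3215 with LPS + Ska, and its log2 fold change was 0.56 with LPS, under the fold limit, and 0.73 (standard error 0.11, limma adjusted p = 0.0017) with LPS + Ska against LPS. The difference between LPS and DMSO was called under median-ratio scaling (0.65), with TPM rescaled without mt- genes (0.59) and without DMSO replicate 5 (0.68) or 6 (0.59). mt-Td, the aspartate tRNA, had 4.03, 2.62 and 2.33 TPM with DMSO, 3.80, 3.05 and 4.55 with LPS, and 16.7, 16.8 and 16.6 with LPS + Ska, a log2 fold change of 1.89 (0.17, adjusted p = 1.3e-04). mt-Co1, which mt-Ts1 overlaps by 3 bases on the other strand, was not called, and the ratio of mt-Ts1 to mt-Co1 was 0.0601 ± 0.00154, 0.0800 ± 0.00553 and 0.158 ± 0.0137 in the 3 groups (SD, n = 3 columns).

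The remaining tRNA genes called higher with LPS + Ska than with LPS were mt-Tg, mt-Ti, mt-Tw and mt-Ta. mt-Tg, the glycine tRNA that precedes mt-Nd3, had 15.8, 13.1 and 9.95 TPM with DMSO, 15.1, 14.5 and 15.7 with LPS, and 29.3, 32.4 and 26.3 with LPS + Ska (log2 fold change 0.91, limma adjusted p = 0.0022). mt-Ti, the isoleucine tRNA, was the one of the 11 called genes whose mean was lower with LPS than with DMSO, with 6.97, 2.75 and 4.16 TPM with DMSO, 2.49, 2.96 and 2.02 with LPS, and 8.85, 10.9 and 6.83 with LPS + Ska. Its LPS + Ska columns overlapped those of DMSO, and it stood 1.48 above LPS (adjusted p = 0.0036).

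mt-Tw and mt-Ta, the adjoining tryptophan and alanine tRNAs on opposite strands, had 13.4 ± 1.20 and 14.5 ± 0.937 TPM with LPS, and 20.9 ± 2.10 and 22.6 ± 1.55 in the LPS + Ska group (SD, n = 3 columns). Both log2 fold changes were 0.60, close to the fold limit. The call of mt-Ta (limma adjusted p = 0.036) was lost without LPS replicates 5, 6 and 7 (adjusted p = 0.099, 0.069 and 0.10), without LPS + Ska replicates 5 and 7 (0.099 and 0.084) and with 2 recovered values in place of the 3 tied columns (0.11). That of mt-Tw (adjusted p = 0.016) was lost without LPS replicates 5 and 6 (0.055 and 0.058), without LPS + Ska replicates 5 and 7 (0.056, and a log2 fold change of 0.53) and with the recovered values (0.053). The other 9 calls held with the recovered values.

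**Figure D4:**
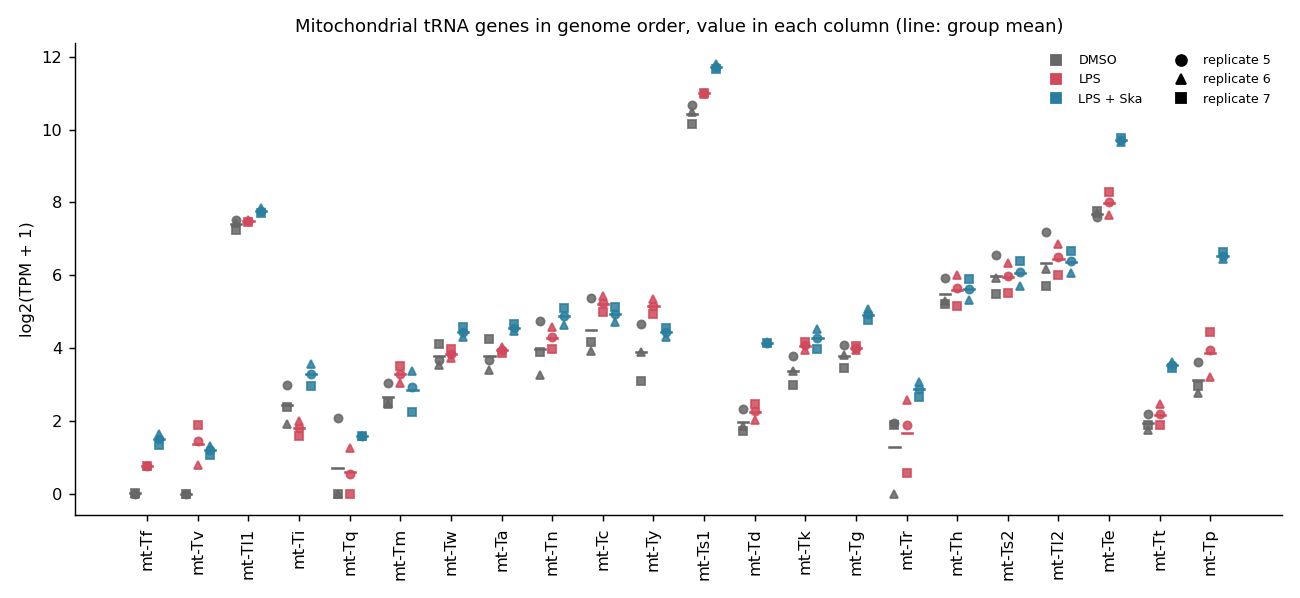
Log2(TPM + 1) (vertical axis) of the 22 mitochondrial tRNA genes in genome order in each of the 9 columns; colours are groups, symbols replicates and lines group means. mt-Tp, mt-Te, mt-Td and mt-Tt stand apart with LPS + Ska, while mt-Th, mt-Ts2 and mt-Tl2 overlap in the 3 groups.

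The tRNA genes that were not called between LPS + Ska and LPS were of several kinds. mt-Th, mt-Ts2 and mt-Tl2, a row of histidine, serine and leucine tRNAs between mt-Nd4 and mt-Nd5, had group means of 44.6 to 48.9, 62.4 to 67.2 and 82.9 to 88.8 TPM, and all groups overlapped. In mt-Tl1, the leucine tRNA between mt-Rnr2 and mt-Nd1, the columns had 181, 172 and 152 TPM with DMSO, 178, 182 and 175 with LPS, and 218, 229 and 206 with LPS + Ska, and its log2 fold change of 0.28 (limma adjusted p = 0.016) was under the fold limit. mt-Tk, a lysine tRNA, was called with LPS against DMSO (0.69, adjusted p = 0.014, and 0.49 without DMSO replicate 7, under the limit) and overlapped between LPS and LPS + Ska, at 15.8 ± 1.26 and 18.5 ± 3.67 TPM (SD, n = 3 columns).

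mt-Ty, a tyrosine tRNA, showed the opposite order. It had 24.3, 13.7 and 7.60 TPM with DMSO, 34.6, 39.5 and 29.8 with LPS, and 20.7, 18.8 and 22.5 with LPS + Ska. It rose with LPS by 1.26 (standard error 0.31, limma adjusted p = 0.0065), and all LPS + Ska columns lay below the LPS columns, with a log2 fold change of -0.71 (adjusted p = 0.12) that was not called. Fitted on the compared groups alone it was called lower (adjusted p = 0.0076), as it was without DMSO replicate 5 (0.028) and without DMSO replicate 7 (0.030). mt-Tc, the adjoining cysteine tRNA, had 24.0 ± 14.6, 36.4 ± 5.80 and 29.8 ± 4.43 TPM with overlap throughout, and without DMSO replicate 5 it was called higher with LPS (1.16) and with LPS + Ska (0.89) than with DMSO.

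The remaining tRNA genes were low or spread widely. mt-Tn (asparagine) had 16.0 ± 8.67, 18.8 ± 4.15 and 28.6 ± 4.76 TPM in the 3 groups, and mt-Tm (methionine) had 5.46 ± 1.59, 8.82 ± 1.57 and 6.56 ± 2.80 (SD, n = 3 columns). Without DMSO replicate 5 both were called higher with LPS than with DMSO (0.71 and 0.81). mt-Tr (arginine) had 2.88, 0 and 2.71 TPM with DMSO, 2.71, 4.93 and 0.485 with LPS, and 6.32, 7.35 and 5.29 with LPS + Ska. mt-Tq (glutamine) had 3.24 TPM in DMSO replicate 5 and was listed at 0 in replicates 6 and 7, had 0.460, 1.38 and 0 with LPS, and 1.98 in each LPS + Ska column. mt-Tf (phenylalanine) and mt-Tv (valine) missed the filter of 1 TPM and were not tested. mt-Tf was listed at 0, 0 and 0.0170 TPM with DMSO and reached 0.678 to 0.686 with LPS and 1.53 to 2.11 with LPS + Ska, and mt-Tv was listed at 0 in all DMSO columns and had 0.718 to 2.69 with LPS and 1.09 to 1.48 with LPS + Ska. No member named in this paragraph was called between LPS + Ska and LPS.

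Compared with DMSO, 12 of 20 tRNA genes tested, 5 of 13 protein genes and mt-Rnr1 were called higher with LPS + Ska, where 11.4% of all genes were. These comprise the 11 called against LPS. The largest were mt-Tp at 3.43, mt-Nd3 at 2.70, mt-Td at 2.17, mt-Te at 2.04 and mt-Atp8 at 1.86. Calls of mt-Ti (0.86, limma adjusted p = 0.017), mt-Tn (0.91, adjusted p = 0.030) and mt-Tr (1.58, adjusted p = 0.038) did not hold when columns were left out. That of mt-Ti was lost without DMSO replicate 6 (adjusted p = 0.059), DMSO replicate 7 (0.051) and LPS + Ska replicate 6 (0.057). That of mt-Tn was lost without DMSO replicates 6 and 7 (0.10 and 0.083) and without LPS + Ska replicates 5 and 7 (0.067 and 0.083). That of mt-Tr was lost without DMSO replicate 6 (0.13), without LPS + Ska replicates 5, 6 and 7 (0.079, 0.084 and 0.056) and under the replicate block (0.060). mt-Atp6 (0.69) fell under the fold limit without DMSO replicate 7 (0.55) and mt-Tw (0.66) without DMSO replicate 6 (0.55). mt-Tc (0.89) and mt-Ty (0.94) were called in addition without DMSO replicate 5.

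Some called genes were neighbours on the genome. Of the 11 genes called higher with LPS + Ska than with LPS, 8 adjoined another called gene, in the pairs mt-Tw and mt-Ta, mt-Ts1 and mt-Td, mt-Tg and mt-Nd3, and mt-Tt and mt-Tp, and mt-Ti, mt-Atp8 and mt-Te had no called neighbour. In LPS compared with DMSO 3 of 7 did so, and the number that chance gives was not computed. A fragment that spans 2 adjoining genes can contribute to both, so neighbours are not independent measurements.

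**Figure D5:**
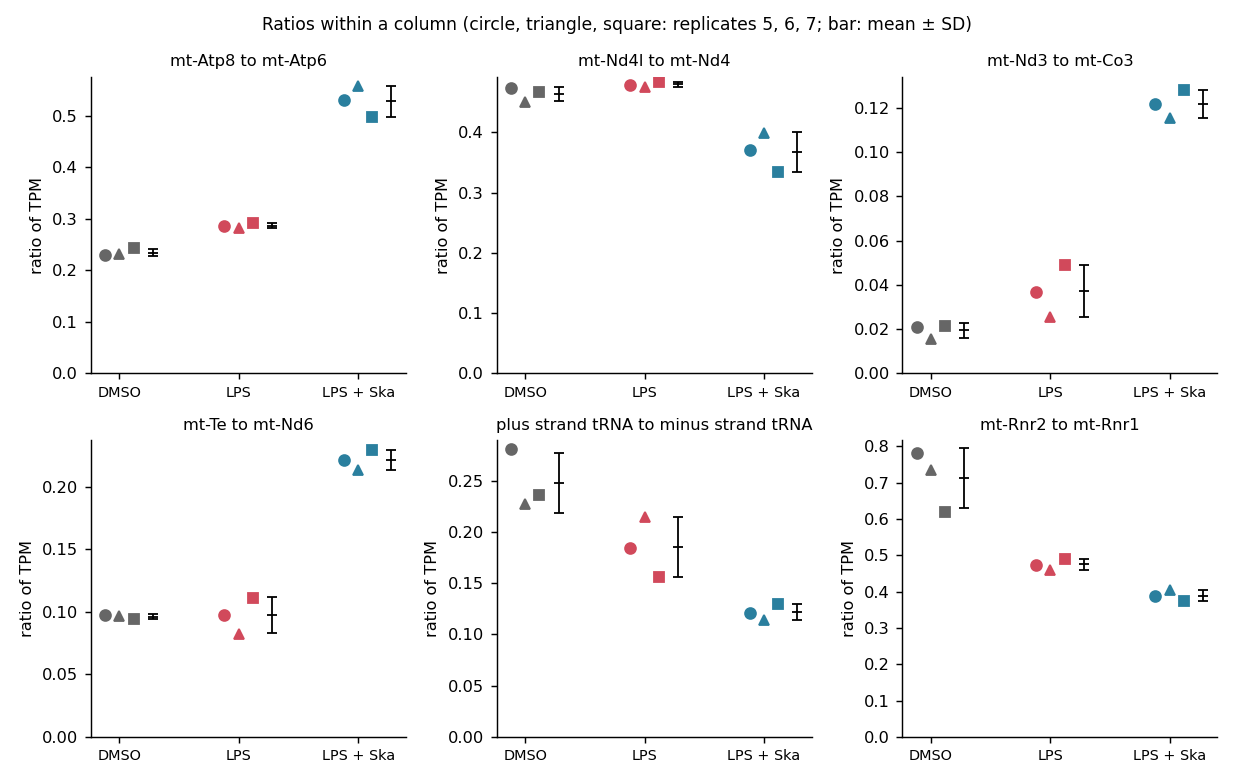
Ratios of TPM within a column (vertical axes, from 0) for 6 pairs of genes or classes; circles, triangles and squares are replicates 5, 6 and 7 and the bar is the mean ± SD of the 3 columns. The ratios of mt-Atp8 to mt-Atp6 and of mt-Te to mt-Nd6 are higher in all LPS + Ska columns than in the other 6, at means of 0.529 and 0.222, and those of plus to minus strand tRNA and of mt-Rnr2 to mt-Rnr1 are lowest there, at means of 0.121 and 0.389.

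Ratios of mt-Nd3 to mt-Co3, with mt-Tg between them, and of mt-Tp to mt-Cytb, with mt-Tt between them, were also drawn up after the values were seen. The first was 0.0194 ± 0.00334 with DMSO, 0.0372 ± 0.0118 with LPS, and 0.122 ± 0.00644 in the LPS + Ska group, and the second was 9.5e-04 ± 2.6e-04, 0.00155 ± 6.99e-04 and 0.0122 ± 0.00214 (SD, n = 3 columns). Both were above every other column in all LPS + Ska columns.

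The RNAs of mitochondrial genes are made, cut and modified by proteins that nuclear genes encode. Of such nuclear genes, 57 in 5 lists were examined beside the mitochondrial genes, and 56 were tested. With LPS + Ska against LPS, 2 were called higher and 0 lower, where 3.35% of all genes were called higher and 6.14% lower. Their median log2 fold change was -0.09 against -0.10 over all genes. At an unadjusted p below 0.05 in limma 14 of them were lower, and the share of all genes at that limit is not given here. With LPS against DMSO, 8 were called higher and 8 lower (4 lower without LPS replicate 6), where 12.7% of all genes were called higher and 20% lower. The 10 genes of transcription, 7 of mtDNA replication, 20 of RNA processing and stability, 12 of tRNA modification and 7 tested regulators had 1, 0, 1, 0 and 0 calls, all higher, between LPS + Ska and LPS.

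Slirp, a partner of Lrpprc that stabilizes mitochondrial mRNA, had 3.90, 4.06 and 5.42 TPM with DMSO, 8.42, 7.99 and 8.85 with LPS, and 15.6, 11.9 and 19.3 with LPS + Ska. It rose in both steps without overlap, by 0.80 (limma adjusted p = 0.0028) and 0.79 (standard error 0.17, adjusted p = 0.0086). Mterf1a, of the family of transcription termination factors, had 9.25 ± 3.26, 5.18 ± 0.821 and 8.74 ± 1.53 TPM (SD, n = 3 columns), lower with LPS (-0.69, adjusted p = 0.020) and higher with LPS + Ska than with LPS (0.65, adjusted p = 0.049). The latter call was lost in 10 of 21 alternatives, among them without each of LPS replicates 5, 6 and 7 (adjusted p = 0.12, 0.14 and 0.066), DMSO replicate 7 (0.062) and LPS + Ska replicates 5 and 7 (0.13 and 0.13), and under the replicate block (0.076). Its call with LPS was lost without DMSO replicate 6 (0.051) and without LPS replicate 6 (0.069).

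The core of the transcription machinery was not called between LPS + Ska and LPS. Polrmt, the mitochondrial RNA polymerase, had 28.3, 29.3 and 32.0 TPM with DMSO, 22.5, 23.0 and 21.9 with LPS, and 18.2, 18.5 and 17.9 with LPS + Ska. Its groups did not overlap, and the log2 fold changes of -0.39 (limma adjusted p = 8.9e-04) and -0.29 (adjusted p = 0.014) were inside the fold limit. Between LPS + Ska and DMSO it was called lower, at -0.68, and no longer with median-ratio scaling (-0.50). Tfam, which packs mtDNA and starts transcription, had 29.2 ± 0.907, 38.7 ± 1.57 and 36.2 ± 2.73 TPM, and Tfb2m, the initiation factor, had 29.7 ± 4.93, 44.8 ± 0.121 and 38.9 ± 4.70 (SD, n = 3 columns). Tfb2m was called with LPS against DMSO (0.59, and 0.45 without DMSO replicate 5, under the limit), and neither was called between LPS + Ska and LPS (-0.10 and -0.21). Tefm, the elongation factor, stood 0.40 higher with LPS + Ska than with LPS (adjusted p = 0.053). Against DMSO it was called higher with LPS + Ska, and no longer without DMSO replicate 7 (0.49).

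Processing enzymes gave no call there either. Elac2, which cuts the 3′ ends of tRNAs, had a log2 fold change of -0.26 (limma adjusted p = 0.058), Lrpprc -0.09, the poly(A) polymerase Mtpap -0.17 and the exonuclease Pnpt1 -0.15. Pnpt1 was called with LPS against DMSO, from 59.1 ± 8.12 to 118 ± 4.21 TPM (0.99, adjusted p = 1.1e-04), and had 107 ± 16.6 TPM with LPS + Ska (SD, n = 3 columns).

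Nuclear genes for subunits of the same complexes had 9 of 77 tested called higher with LPS + Ska than with LPS, and 0 lower. Over all genes these shares were 3.35% and 6.14%. The median log2 fold change of these nuclear genes was 0.09. At an unadjusted p below 0.05 in limma, a looser limit, 7 of them were lower, and the share of all genes at that limit is not given here. Because tRNAs are short, other short or tailless RNAs were read beside them. Short nuclear RNA genes summed to 452 to 569 TPM with DMSO, 496 to 505 with LPS and 409 to 438 with LPS + Ska, and 2 of 56 tested were called higher and 9 lower between the last 2. Replication histones, whose mRNAs lack a poly(A) tail, summed to 155 to 189, 83.7 to 92.1 and 114 to 119 TPM, with 5 of 25 called higher and 2 lower. The short nuclear RNAs thus lay lower in all LPS + Ska columns than in all LPS columns, and the histones lay higher. The part of RNA selection or of fragment length in the tRNA differences was not tested.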

How the data were processed

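RNA-seq of RAW264.7 cells treated with DMSO, LPS or LPS + Ska was taken as the table of TPM per gene that the authors deposited, 9 columns of 3 groups each summing to about 1e+06. Per the labels, total RNA was made into libraries with the NEBNext Ultra RNA kit. The submitters' processing notes name fastp 0.20.1, HISAT2 2.2.1, StringTie 2.0 and build mm10, and the annotation is not given in the sources used here. Symbols were matched by gene ID to 55141 of 55401 genes. Groups follow the sample titles.

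Values were compared on log2(TPM + 1) by limma 3.58.1 (R 4.3.3, functions lmFit and eBayes, trend by mean level) over all 9 columns and 12819 genes, after a filter of mean TPM of at least 1, and the code was tested on simulated data. Class sums and ratios were compared by exact permutation (SciPy 1.17.1), and nuclear copies were found with blastn 2.17.0 (at least 90% identity over 50 bases, among annotated transcripts of mean TPM at least 1). Every mt- gene is named. Of the nuclear lists, Polrmt, Tfam, Tfb2m, Tefm, Lrpprc, Slirp, Elac2, Mtpap and Pnpt1 were always named, others if called between LPS + Ska and LPS, and so were nuclear copies of mean TPM at least 1. The members, the lists and these rules were chosen with earlier results of these data known. Settings tried instead were median-ratio scaling, a filter at 5 TPM or none, 0.1 as the pseudocount, TPM rescaled after leaving out mt- genes, recovered values for the tied columns (replicate 5 plus and minus 0.5 times the difference to replicate 6), a replicate block, the compared groups alone, no trend, the adjusted p alone and each column left out. Adding the nuclear copies and rescaling without them were chosen after seeing the data.

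Deviations of same-numbered columns correlated at 0.384, 0.151 and 0.128 between LPS and LPS + Ska, whose columns are tied in the same way, and at -0.032 to 0.0801 between the other groups, so the numbers were not taken to pair samples.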

Additional observations from a re-analysis of the deposited data

How the results depend on the processing

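No count of mt- genes called higher changed by more than 1.5 times, except in LPS compared with DMSO, where 7 became 11 with the adjusted p alone and 5 to 12 with 1 column left out (12 without DMSO replicate 5). Over all alternatives the count stayed between 9 and 14 in LPS + Ska compared with LPS (9 with the recovered values) and between 15 and 21 in LPS + Ska compared with DMSO. The count called lower, 0, became 0 to 1 with 1 column left out in LPS compared with DMSO (1, mt-Ti at -0.89, without DMSO replicate 6), and in LPS + Ska compared with LPS it became 1 with the compared groups alone, 1 with the adjusted p alone and 0 to 1 with 1 column left out (mt-Ty without DMSO replicate 5 or 7, mt-Nd4l without LPS + Ska replicate 6). The replicate block gave 7, 11 and 17 mt- genes called higher in the 3 comparisons, and moved no count of mt- genes by more than 1.5 times.

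The median log2 fold change of the tRNA genes ran from 0.15 to 0.48 in LPS compared with DMSO and from 0.59 to 1.11 in LPS + Ska compared with DMSO with 1 column left out. With median-ratio scaling, LPS + Ska compared with DMSO gave a median of 0.37 for the protein genes, and sums of 0.52 for protein, 1.12 for rRNA and 1.44 for tRNA genes. The sums and ratios kept their direction in every alternative run, except the protein sum and median between LPS + Ska and LPS and the ratio of mt-Nd6 between LPS and DMSO, all near 0.

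Of the nuclear genes of mitochondrial gene expression, the 8 higher and 8 lower with LPS against DMSO became 22 and 17 with the adjusted p alone, and 6 to 9 and 4 to 8 with 1 column left out (4 without LPS replicate 6). Between LPS + Ska and LPS the 2 higher became 1 with no filter, 1 with recovered values, 1 under the replicate block, 1 with no intensity trend, 6 with the adjusted p alone and 1 to 2 with 1 column left out, and the 0 lower became 1 with the pseudocount of 0.1, 9 with the adjusted p alone and 0 to 2 with 1 column left out (2 without LPS + Ska replicate 6). Between LPS + Ska and DMSO the 8 higher and 8 lower became 14 and 4 with median-ratio scaling and 22 and 18 with the adjusted p alone. The cause of these shifts was not tested.

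No called mt- gene changed direction. mt-Tn in LPS compared with DMSO, not called, turned to -0.024 without DMSO replicate 6 in a range of -0.024 to 0.71, and between LPS + Ska and LPS Tfam (0.0018) and Lrpprc (0.011) turned positive with median-ratio scaling. Another 46 of 2196 values of mt- genes changed sign from a value within its standard error. The depth is unknown and each LPS group holds at most 2 independent values, which limits every p.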
